A study of Mus musculus with 6 samples.

Results

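The comparison between ΔDL and DBD isolates the part of the KLF3 N-terminal domain that lies beyond the CtBP contact, since neither mutant has an intact contact with CtBP and only DBD lacks the rest of the N-terminus. The sites were those of the table of all chromatin immunoprecipitation (ChIP) peaks that were listed for ΔDL, for DBD or for both, which gave 12770 of 22188 sites. The other 9418 sites were listed for wild-type KLF3 alone and entered only as an alternative. Of the 12770 sites, 1035 lay in promoters (1 kb upstream to 0.1 kb downstream of a RefSeq start site), 4431 in introns, 6903 in intergenic regions and 401 in exons or near transcription ends, here called other.

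The cells were murine embryonic fibroblasts (MEFs) from Klf3-/- mice on a C57BL/6 background. They were rescued by retroviral (MSCV) delivery with a V5-tagged construct and kept as stable clones under puromycin selection. In ΔDL, the amino acids DL of the motif through which KLF3 contacts the corepressor CtBP were replaced by AS. In DBD, the N-terminal domain was removed and a putative nuclear localization signal and the zinc fingers were kept. Wild-type KLF3 was rescued in the same way and is used here only as a reference level. Each construct was precipitated with an anti-V5 antibody in 2 replicates with a paired input each. Nothing says that the replicates came from separate clones or cultures, so the spread between them may be technical. Per the methods, lines of similar protein level were kept, and the mRNA of DBD was somewhat lower. A difference between clones therefore cannot be told apart from a difference between constructs. Peak tables hold no expression values, so the cell type could not be checked against markers.

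Krüppel-like factors bind CACCC boxes and related GC-rich elements through zinc fingers at the C-terminus that are nearly alike across the family. Their N-terminal domains differ and carry the contacts with cofactors. KLF3 recruits CtBP, which assembles histone deacetylases and methyltransferases, and it is known mainly as a repressor.

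Peaks were called on each replicate alone, and the 4 lists held 17206 (ΔDL replicate 1), 32624 (ΔDL replicate 2), 9156 (DBD replicate 1) and 8105 peaks (DBD replicate 2). The scores are whole multiples of the worth of a single tag (a read that the authors' peak caller counted), which put 1.77 M and 10.2 M tags behind the ΔDL lists and 7.81 M and 8.38 M behind the DBD lists. These totals are lower than the numbers of mapped reads that the study lists, and the reason was not tested. Peaks of ΔDL replicate 1 held a median of 6 tags and could hold as few as 4, whereas the medians of the other lists were 11, 10 and 10 tags. Peak height is the number of tags in 400 bp around a site, scaled to a library of 100 M tags. The authors counted it over both replicates together (11.8 M tags for ΔDL, 14.7% of them from replicate 1 by the worth of a tag, and 16.0 M for DBD), so each site has 1 height per construct and no replicate error. The 14.7% is over the whole library. At single sites replicate 1 could weigh more, with 21 peak tags against 26 in replicate 2 in intron 6 of Sox5. Uniform coverage of the genome would give a height of 15.1. A single tag was worth 8.45 in ΔDL heights and 6.23 in DBD heights.

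The sequences printed here are shown because sites of large and of small difference differed in their CACCC-type cores. Each is the central 100 bp of a site on the plus strand of mm9, with every core in capitals. The motif CCACCC counted as a core, as did the motif ACACCC and the GC-box types, which are the motif CCGCCC and the motif ACGCCC. Both strands were searched, so a run of capitals that starts with GGG is a core read from the other strand. The first 5 are from sites where ΔDL was far higher than DBD (9.71-fold at Fez2 to 54.2-fold at Krt78, and at least 29.8-fold at Lrr1).
Promoter of Lrr1 (chr12:70269508-70269607): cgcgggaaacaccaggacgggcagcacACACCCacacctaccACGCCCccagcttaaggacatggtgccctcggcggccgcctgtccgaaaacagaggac
Intergenic, nearest gene Krt78 (chr15:101807977-101808076): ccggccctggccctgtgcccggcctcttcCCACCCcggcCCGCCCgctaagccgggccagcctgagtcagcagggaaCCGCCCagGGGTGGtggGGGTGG
Intergenic, nearest gene Epgn (chr5:91466901-91467000): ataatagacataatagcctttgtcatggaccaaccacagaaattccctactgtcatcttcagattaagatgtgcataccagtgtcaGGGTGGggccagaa
Intron 5 of Fez2 (chr17:78799540-78799639): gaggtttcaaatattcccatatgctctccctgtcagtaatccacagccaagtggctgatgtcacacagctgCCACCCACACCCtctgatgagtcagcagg
Intron 11 of Sema3c (chr5:17195000-17195099): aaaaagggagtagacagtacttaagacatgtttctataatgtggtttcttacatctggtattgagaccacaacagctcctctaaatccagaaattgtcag

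The last of these holds no core and shows that a core was not found at every such site. The next 4 are from sites where the heights of ΔDL and DBD differed by less than 1.5-fold.
Promoter of Olfr103 (chr17:37474446-37474545): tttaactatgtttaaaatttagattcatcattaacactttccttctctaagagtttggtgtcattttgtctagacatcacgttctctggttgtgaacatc
Intron 6 of Sox5 (chr6:143924755-143924854): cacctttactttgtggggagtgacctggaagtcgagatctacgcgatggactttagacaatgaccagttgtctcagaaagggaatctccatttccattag
Intergenic, nearest gene 1700063A18Rik (chr1:97778057-97778156): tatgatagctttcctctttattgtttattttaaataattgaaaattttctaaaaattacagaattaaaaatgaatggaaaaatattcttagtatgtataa
Intron 19 of Grin1 (chr2:25148514-25148613): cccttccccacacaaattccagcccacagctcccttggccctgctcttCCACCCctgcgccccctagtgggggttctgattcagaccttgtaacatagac

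The first 3 hold no core and came from 400 bp windows of 34.0%, 38.0% and 25.8% G+C, and the site in Grin1 is an exception with a core.

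ΔDL was higher than DBD at 97.8% of the sites, with a larger excess at promoters than elsewhere. Most sites entered through a call for ΔDL (12248 sites, of which 7815 were not listed for DBD, and 971 of 1019 at promoters), so the direction and much of the size go with how the sites were listed, and the values are a description. Over all 12770 sites, ΔDL was at least 2-fold higher at 3951 (30.9%), the heights were within 1.5-fold at 4429 (34.7%) and DBD was at least 2-fold higher at 3 (0.0235%). At promoters, 972 of 1035 sites (93.9%) were at least 2-fold higher in ΔDL and 30 (2.9%) were within 1.5-fold. The order was turned in introns, with 1263 of 4431 sites (28.5%) at least 2-fold higher and 1572 (35.5%) within 1.5-fold, and in intergenic regions, with 1590 of 6903 (23.0%) and 2709 (39.2%). The median difference between ΔDL and DBD heights on the log2 scale was 2.79 (quartiles 2.12 and 3.36) at promoters, 0.72 (0.48 and 1.07) in introns and 0.68 (0.45 and 0.96) in intergenic regions. In linear heights, the promoter medians were 375 for ΔDL and 58.1 for DBD, against 194 and 108 in introns and 185 and 111 in intergenic regions. Promoter sites thus had both the highest ΔDL and the lowest DBD median of these regions.

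**Figure D1:**
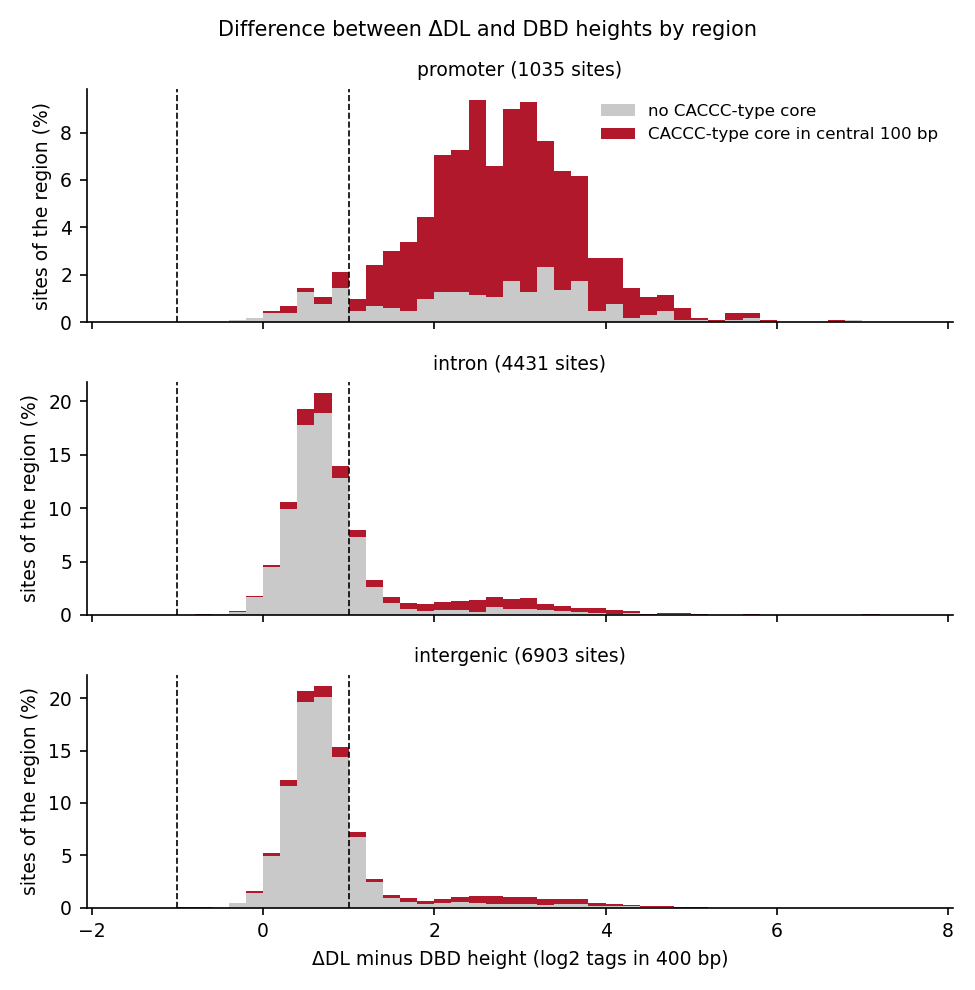
Share of the sites of a region (vertical axis, in percent) by the difference between ΔDL and DBD heights (horizontal axis, log2 tags in 400 bp, in steps of 0.2), with sites that hold a CACCC-type core in the central 100 bp in red, stacked on sites without one in grey. Dashed lines mark 2-fold in either direction; the 1035 promoter sites centre near 2.79, and the 4431 intronic and 6903 intergenic sites form a main group near 0.7 and a thin second group above 2.

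These counts depend on how the heights are scaled. At the 4442 sites that overlapped a peak in each of the 4 replicate lists, the median difference in height was 0.59 on the log2 scale. With heights scaled so that this median is 0, the number of sites at least 2-fold higher in ΔDL was 907 (87.6%) at promoters, 693 (15.6%) in introns and 815 (11.8%) in intergenic regions, and sites within 1.5-fold rose to 9340 of 12770 (73.1%). The medians relative to that shift were 2.20 at promoters, 0.13 in introns and 0.09 in intergenic regions. No test was made on heights, since they combine the replicates. At the 4442 sites, the median log2 difference in peak score from the DBD lists was 1.80 and 2.04 for ΔDL replicate 1. For ΔDL replicate 2 it was 0.03 and 0.24, and how far the heights rest on replicate 1 was not tested.

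The replicate lists gave the same order of regions. Promoters held 7.37% and 15.9% of the peaks of the ΔDL lists, against 1.59% and 2.80% for DBD. The means were 11.6% ± 6.05 and 2.20% ± 0.853 (SD, n = 2 lists each), and the groups did not overlap. The two-sided exact permutation test gave p = 0.333, the smallest p that 2 lists against 2 allow, so none of the comparisons of lists could reach 0.05. Intergenic peaks made up 53.8% and 46.4% of the ΔDL lists and 58.8% and 57.9% of the DBD lists (exact p = 0.333). Introns held 35.7%, 34.3%, 36.4% and 36.3%, so their share differed little. In numbers, 1268 and 5196 promoter peaks were called for ΔDL and 146 and 227 for DBD. Promoter peaks of ΔDL also lay closer to the start site, at a median of 104 and 85 bp upstream, against 232.5 and 238 bp for DBD.

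**Figure D2:**
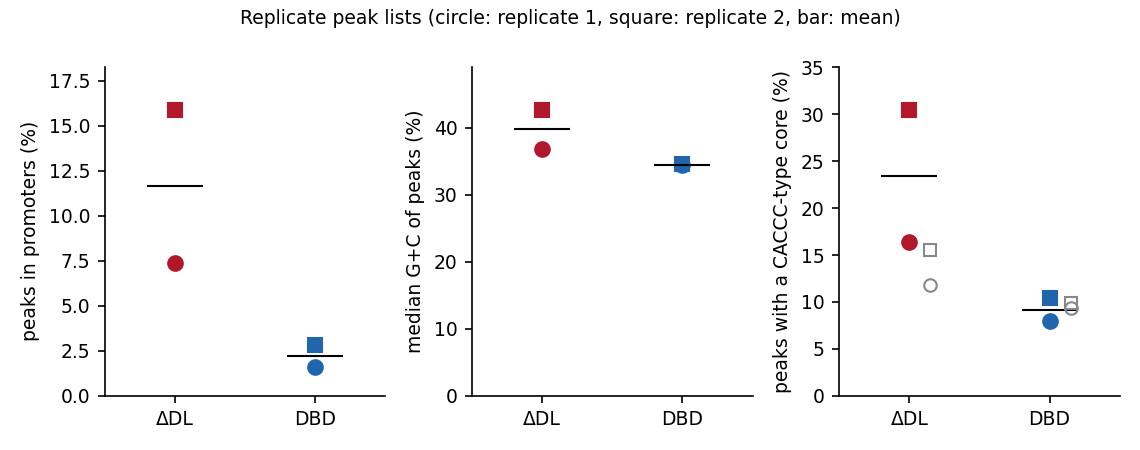
Share of peaks in promoters, median G+C content of the peaks and share of peaks with a CACCC-type core in the central 100 bp, for each of the 4 replicate lists (circles are replicate 1, squares replicate 2, bars the mean of 2). Open grey symbols give the core share in flanks 400 to 500 bp away on the side of higher coordinates. Both ΔDL lists lie above both DBD lists in each panel, and the core shares of the DBD lists, 7.93% and 10.4%, sit at their flank shares of 9.31% and 9.92%.

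The distance from the start site ordered the sites in the same way. Within 100 bp of a start site, 507 of 513 sites (98.8%) were at least 2-fold higher in ΔDL, with a median difference of 2.85. From 100 bp to 1 kb it was 85.5%, from 1 to 10 kb 36.3%, from 10 to 100 kb 28.3% and farther than 100 kb 16.7%. The share of sites with a core fell over the same bins from 82.7% through 67.6%, 25% and 16.5% to 7.08%.

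The overlap of the listed sites was unequal, and its order depended on list length. Of 4955 sites called in both DBD replicates, 4433 (89.5%) were also called in both ΔDL replicates, whereas those 4433 were 36.2% of the 12248 ΔDL sites. Shared sites were rare among the ΔDL sites at promoters, with 48 of 1019 (4.71%), and more frequent in introns (1559 of 4238, 36.8%) and intergenic regions (2692 of 6604, 40.8%). Of the 522 DBD sites not listed for ΔDL, 276 were called in ΔDL replicate 2 alone, 176 in replicate 1 alone and 67 in neither, so few were seen for DBD only. Of the 971 promoter sites of ΔDL not listed for DBD, 883 (90.9%) were called in neither DBD replicate. With the 8105 highest peaks of each list the order turned, and 63.3% of the ΔDL sites and 51.5% of the DBD sites were shared. Without ΔDL replicate 1, 14.4% of the ΔDL sites were shared.

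The excess also went with the constructs for which a site was listed. The 2304 sites listed for KLF3 and ΔDL but not DBD had a median log2 difference of 2.73, and 2033 of them were at least 2-fold higher in ΔDL. At the 5511 sites listed for ΔDL alone the median was 0.76 and 1595 were at least 2-fold higher. The 2099 sites shared by ΔDL and DBD but not KLF3 had a median of 0.54, the 2334 sites of all constructs 0.63 and the 463 sites of DBD alone 0.29. Since DBD height takes part in whether a site is listed for DBD, these medians are a description and support nothing. KLF3 height followed ΔDL: its median was 461 at the promoter sites at least 2-fold higher in ΔDL and 107 at the promoter sites within 1.5-fold, where the ΔDL medians were 388 and 165. The DBD median ran the other way, at 56.1 and 135.

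Sites at which ΔDL exceeded DBD differed in sequence from those at which the heights were equal. Of the sites at least 2-fold higher in ΔDL, 48.0% (95% Wilson interval 46.4 to 49.5) held a core in the central 100 bp. In flanks of the same length, 400 to 500 bp away on the side of higher coordinates only, the share with a core was 18.3%. Of the sites within 1.5-fold, 6.28% (5.60 to 7.03) held one, against 8.90% in the flanks. The intervals cover counting error over sites only, and sites are not replicates. By region, cores were present at 79.6% of the ΔDL-higher promoter sites (flank 30.9%), 41.1% in introns (13.9%) and 33.8% in intergenic regions (13.6%). At the equal sites the shares were 20% of 30 promoter sites (flank 23.3%), 7.12% in introns (9.67%) and 5.54% in intergenic regions (8.27%). At equal sites in each of these regions, then, the centre held cores no more often than the flank. With heights scaled to the same median, 67.6% of the ΔDL-higher sites and 6.68% of the equal sites held a core.

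Seen from the sequence, 1895 of the 2489 sites with a core (76.1%) were at least 2-fold higher in ΔDL, with a median log2 difference of 2.40, against 2056 of 10281 sites without one (20%), with a median of 0.67. More cores went with a larger difference up to a point: the median was 2.21 with a single core, 2.68 with 2, 2.83 with 3 and 2.84 with 4 or more. ΔDL height followed, at 182 without a core, 296 with 1 and 396 with 4 or more, and DBD height fell from 112 to 76.6 and 56.5. Most of these sites entered through a ΔDL call, so a low DBD height goes with how they were listed. Among the 4 core sequences, sites with CCGCCC had the largest median difference (2.66) and sites with CCACCC the smallest (2.18). CCGCCC was present at 19.0% of the ΔDL-higher and 0.7% of the equal sites.

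Each replicate list showed the same split. Peaks of ΔDL replicate 1 that overlapped no DBD peak held a core in 23.9% of cases, and those that overlapped one in 7.94%. For ΔDL replicate 2 these shares were 38.2% and 9.90%. For DBD the peaks without and with a ΔDL peak differed less, at 8.86% and 7.78% in replicate 1 and 12.7% and 9.84% in replicate 2. Peaks found with both constructs had a median G+C content of 34.6% and 35.9% in the ΔDL lists and 35.1% and 35.4% in the DBD lists, and peaks of ΔDL without a DBD peak had 39.8% and 45.8%. Over whole lists the core share was 23.5% ± 9.97 for ΔDL and 9.14% ± 1.71 for DBD (SD, n = 2 lists, exact p = 0.333). The DBD shares over whole lists stood at their own flanks, with 7.93% against 9.31% in replicate 1 and 10.4% against 9.92% in replicate 2. Of the 146 and 227 DBD promoter peaks, 55.5% and 56.4% held a core, against 68.3% in both ΔDL lists. Flanks of the lists were not split by region.

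G+C content moved with the core. The ΔDL-higher sites had a median G+C content of 60.8% at promoters, 44.2% in introns and 42.8% in intergenic regions, and the equal sites 43.1%, 38.0% and 36.2%. Outside promoters, the median difference was larger with a core than without one in each bin between 35 and 60% G+C. In windows of 45 to 50% G+C the median log2 difference was 2.25 at 399 sites with a core and 0.75 at 1057 without, and at 50 to 55% it was 2.49 at 264 and 0.88 at 333. At or below 35% both medians were 0.60, although 96 sites held a core, and at 60 to 65% the order turned, with 2.77 at 68 sites with and 3.26 at 12 without a core. At promoters of 45% G+C and more, sites with and without a core lay closer together. At 55 to 60% the medians were 2.80 at 190 sites with and 2.94 at 54 without a core. The order was not constant, with 2.83 with and 2.35 without a core at 50 to 55%, and 2.74 and 3.28 at 60 to 65%. The part of chromatin accessibility and of sequencing bias in G+C content was not tested.

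**Figure D3:**
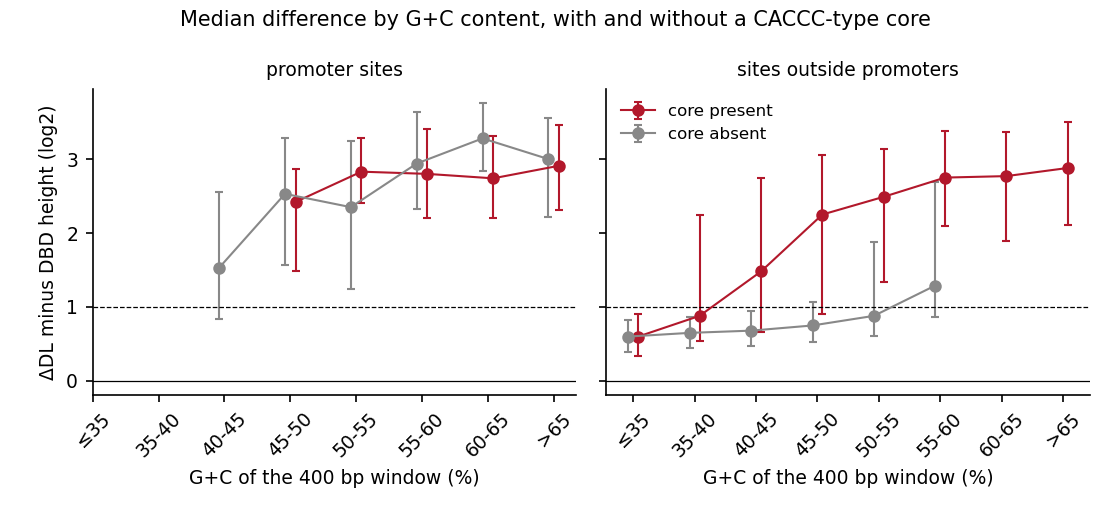
Median difference between ΔDL and DBD heights (vertical axis, log2 tags in 400 bp, bars from the lower to the upper quartile) in bins of the G+C content of the 400 bp window (horizontal axis, percent), at promoter sites (left) and outside promoters (right), with (red) and without (grey) a CACCC-type core. Bins of under 20 sites are not drawn. Outside promoters the curves part between 40 and 60%, for example 2.25 against 0.75 at 45 to 50%. At promoters they lie closer together and cross.

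Sequences of other factors were also counted in the central 200 bp on both strands, with no searched sequence holding another. Flanks of 200 bp on the side of higher coordinates served for comparison. The AP-1 sequence TGACTCA (the other strand of which reads TGAGTCA) was present at 19.8% of the ΔDL-higher sites in introns (flank 2.93%) and 15.8% in intergenic regions (4.09%), against 2.74% (2.29%) and 2.44% (2.84%) of the equal sites. At ΔDL-higher promoters it was at 2.47% (flank 2.06%). There the ETS sequence CCGGAAG was present at 20.1% (3.50%) and CCAAT at 34.3% (18.5%). Of the 30 equal promoter sites, 6 held CCAAT (20%, flank 10%), 4 held the AP-1 sequence (13.3%, flank 0%) and 0 the ETS sequence. The TEAD sequence GGAATG was at 17.8% of ΔDL-higher sites in introns (10.2%) and 7.38% of equal sites (9.41%), and the RUNX sequence TGTGGTT at 9.42% (4.51%) and 4.45% (4.39%). Outside promoters, each of the AP-1, TEAD and RUNX sequences was above its flank at ΔDL-higher sites, and at equal intergenic sites each was below it. A match is only a run of letters and does not show that a factor was bound.

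The sites with the largest ΔDL excess were named within promoters, introns and intergenic regions separately, so their spread over these regions was set by the rule. They were at or near background in DBD, but a ranking by the excess itself favours low DBD heights, so these heights are a description. At the promoter of Oxsr1, a kinase that controls ion cotransporters, 17 and 69 tags were called in the ΔDL replicates and no peak in either DBD replicate. Its heights were 1409 for ΔDL and 24.8 for DBD, 56.9-fold apart (difference 5.83 on the log2 scale). DBD heights under 18.7, the worth of 3 tags, carry large counting error. At the promoter of Lrr1, a substrate receptor of a ubiquitin ligase, ΔDL had 7 and 30 tags and a height of 556, while DBD held less than a single tag, so ΔDL was at least 29.8-fold higher. At the promoter of Fryl, with 6 and 13 ΔDL tags, it was at least 13.7-fold higher by the same floor. At the promoter of Smarcd1, a subunit of the SWI/SNF remodelling complexes, the heights were 481 and 8.94, or 53.8-fold (12.2 to 822). This range is a Poisson interval on the DBD height in tags, as are those given for ratios below. Such a height is not a whole count, and the interval leaves out that uncertainty and the counting error of ΔDL.

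The largest excesses in introns were in genes of diverse roles. Intron 11 of Sema3c, a secreted guidance molecule, held 12 and 60 ΔDL tags with heights of 898 and 23.4, 38.3-fold apart. The intron of Gpr39, a zinc-sensing receptor, held 16 and 45 tags with heights of 803 and 22.6, 35.5-fold apart. In intron 5 of Camta1, a calmodulin-binding transcription factor, and intron 2 of Nfic, a nuclear factor I protein, DBD held less than a single tag and ΔDL was at least 15.5-fold and 15.4-fold higher. None of these 4 introns had a DBD peak in either replicate.

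Between genes, a large ratio at a DBD height of over 1 tag was at a site 31747 bp upstream of Ptprj, a receptor tyrosine phosphatase, with 8 and 43 ΔDL tags and heights of 671 and 8. The ratio was 83.9 (17.8 to 1654). A site 14209 bp upstream of Epha2, an ephrin receptor, held 9 and 39 tags with heights of 530 and 7.46, a ratio of 71 (14.4 to 1668). The site with 5 cores shown above, 23309 bp upstream of the keratin gene Krt78, held 6 and 35 tags with heights of 468 and 8.63, a ratio of 54.2 (12.1 to 894). At a site 31198 bp downstream of the start of Mrps23, which encodes a mitochondrial ribosomal protein, ΔDL was at least 14-fold higher. Of the 12 sites of this kind, 8 held a core. Among all sites at least 2-fold higher in ΔDL, the share was 79.6% at promoters, 41.1% in introns and 33.8% in intergenic regions.

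The sites of the smallest difference were chosen among those called in all 4 lists, so their like heights are a description. In intron 6 of Sox5, a transcription factor of chondrocytes and neurons, the ΔDL replicates had 21 and 26 tags and the DBD replicates 32 and 24, with heights of 377 and 345. In an intron of Gm4894 the tags were 15, 20, 22 and 20 and the heights 278 and 271. In an intron of Fam118b they were 18, 26, 17 and 18, with heights of 326 and 304. A single tag more or less in each list would change these ratios, which lie between 1.03 and 1.09.

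The 3 named equal sites between genes were each over 100 kb from a start site. Near 1700063A18Rik, 140228 bp away, the tags were 16, 24, 27 and 19 and the heights 309 and 267. A site 101321 bp from Thumpd2 had 19, 34, 27 and 32 tags, with heights of 377 and 326, and a site 181797 bp from 4932412D23Rik had 6, 23, 23 and 15, with heights of 272 and 256. None of these 3 held a core, and their G+C contents were 25.8%, 34.0% and 39.5%.

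Equal promoters were few, and only 6 had a log2 height of at least 8 for ΔDL or DBD. The 3 named here were the closest of 12 promoters that met the conditions on height and calls, and those 12 were not all equal. The tags at Tdrd3, which reads methylated arginine through a tudor domain, were 10 and 24 in ΔDL and 25 and 22 in DBD, with heights of 317 and 298. Its single core lay at the edge of the central 100 bp. The other 2 belong to sensory receptor genes, Olfr103 (19, 30, 27 and 20 tags, heights 367 and 274) and Tas2r119 (14, 28, 25 and 24 tags, heights 360 and 267). Among promoters called in both DBD replicates with a DBD log2 height of at least 8, the same 3 had the largest DBD height relative to ΔDL. ΔDL was still the higher in all 3. Over all promoter sites, ΔDL was higher at 99.7%, and the lowest log2 difference was -0.33.

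At the sites named for the largest DBD excess, DBD was less than 2-fold higher than ΔDL. In an intron of Camk1d, a calcium-dependent kinase, DBD had 40 and 32 tags, and no ΔDL peak was called. Its heights were nevertheless 239 for ΔDL and 391 for DBD, and KLF3 stood at 261. The pattern of a high ΔDL height without a ΔDL call recurred near Gtpbp4 (729 and 885, with 62 and 70 DBD tags) and Pxmp3 (662 and 781, with 63 and 41). At Rpp21, an RNase P subunit, the heights were 208 and 324. Since a call also asked for enrichment over the input, and input heights were not analysed here, a missing call at these sites is not a missing signal. The only 3 sites at least 2-fold higher in DBD were intergenic, near Ifngr2 (77.2 and 215, with 23 and 10 DBD tags), 4930433N12Rik (44.0 and 110) and Csnka2ip (67.2 and 141). These were named after their values were seen.

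**Figure D4:**
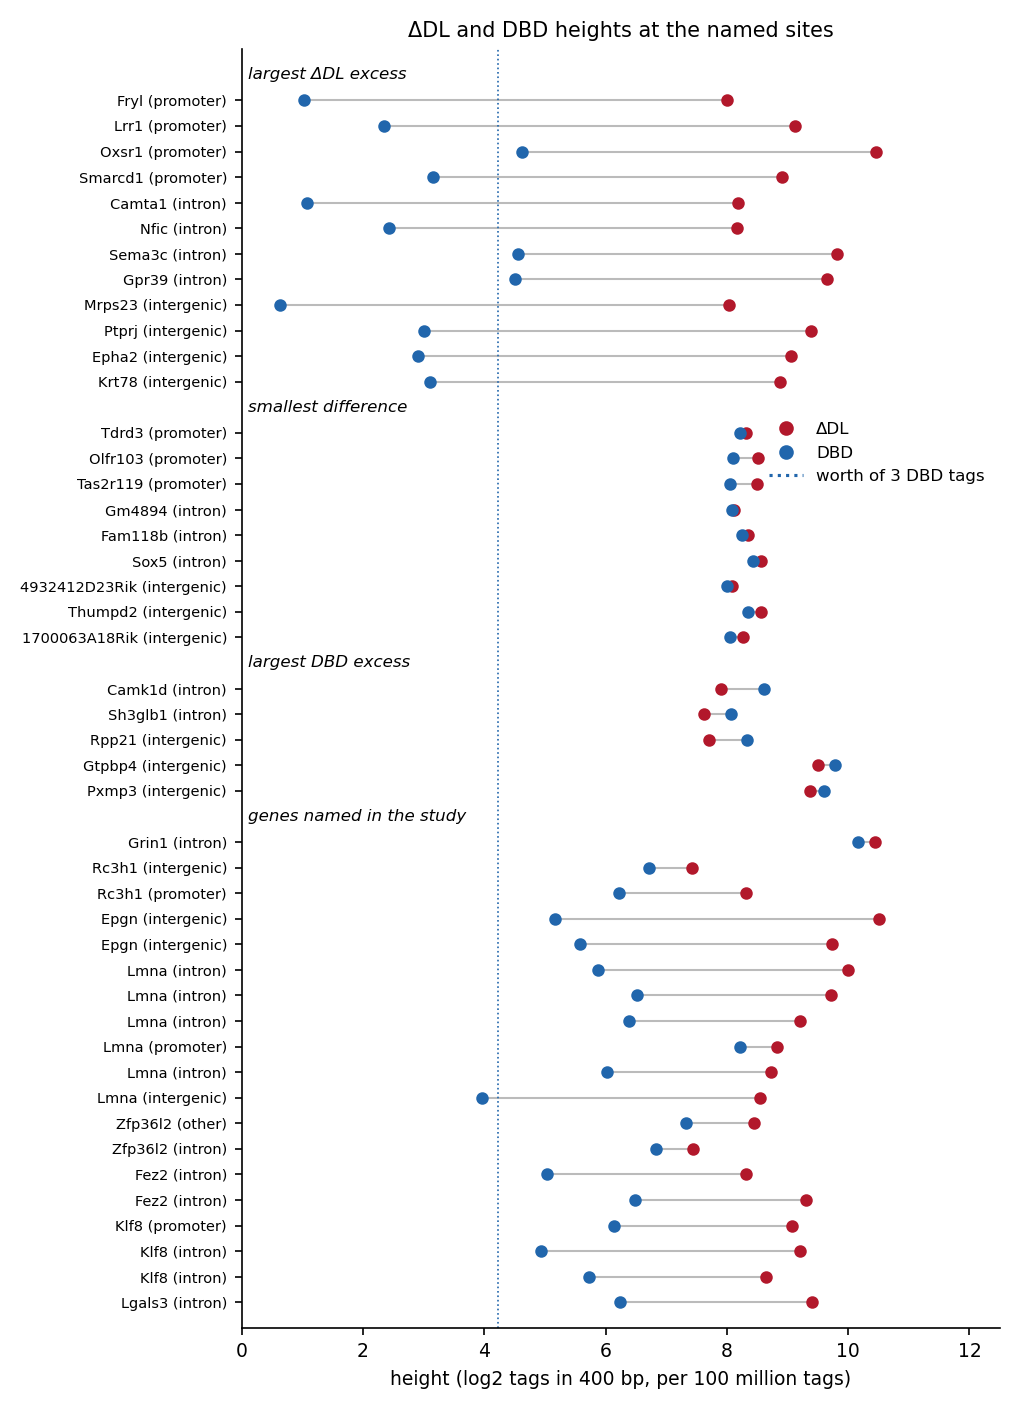
Heights of ΔDL (red) and DBD (blue) at the named sites (horizontal axis, log2 tags in 400 bp per 100 M tags), grouped by the rule that named them, with the region in brackets and 1 value per construct. Sites in introns carry the gene of the intron and intergenic sites the nearest gene; the dotted line marks the worth of 3 DBD tags, a height of 18.7. The pairs lie apart in the first group, meet in the second and are turned in the third, which leaves out the promoters already drawn in the second.

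At genes known as KLF3 targets or taken as examples by the study, both kinds of site occurred side by side. Klf8, a family member, had 3 sites, all higher in ΔDL. Its promoter held 7 and 26 ΔDL tags and no DBD peak, with heights of 537 and 70.5, and the start of its intron 1 held 7 and 30 tags, with heights of 592 and 30.7. The promoter window carried 2 cores and the intron window none. In intron 1 of Lgals3, which encodes galectin-3, the ΔDL tags were 8 and 47 and the heights 676 and 75.6, an 8.94-fold difference at a site with 2 cores. No site of ΔDL or DBD was nearest to Fam132a.

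Lmna, the gene of the nuclear lamins A and C, had 6 sites, and 5 were called in both ΔDL replicates and neither DBD replicate. The highest, in intron 1, held 15 and 60 tags with heights of 1024 and 58.5, 17.5-fold apart. The others were between 6.54-fold and 23.8-fold higher in ΔDL (7.44 to 142 for the last, Poisson interval on the DBD height in tags). The sixth, at an Lmna promoter, was called in both DBD replicates (11 and 21 tags) and neither ΔDL replicate, although its heights were 452 for ΔDL and 296 for DBD. Within this gene, then, a site that differed 1.53-fold lay less than 1 kb from a site that differed 7.06-fold.

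The highest site of Epgn, which encodes a ligand of the epidermal growth factor receptor, lay 10408 bp downstream of the start and held 21 and 111 ΔDL tags with heights of 1458 and 36.0, 40.5-fold apart, while KLF3 stood at 221. A second Epgn site, 11003 bp from the start, had heights of 855 and 47.8. In Fez2, intron 5 held 8 and 18 ΔDL tags and 8 tags in DBD replicate 1 alone, with heights of 320 and 32.9, and intron 4 held heights of 630 and 89.9. The promoter of Rc3h1, which encodes the RNA-binding protein roquin-1, carried 4 cores, and its heights were 317 for ΔDL, 74.5 for DBD and 1418 for KLF3, so ΔDL stood well below KLF3 there and 4.26-fold above DBD.

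At the other end, the peak in the last intron of Grin1, an NMDA receptor subunit, differed 1.21-fold, with 33 and 118 tags in ΔDL, 95 and 102 in DBD and heights of 1399 and 1152. It was called in all 4 lists and held a core. At Zfp36l2, an mRNA decay factor, a peak in the 3′ UTR was called in all 4 lists (7, 26, 9 and 11 tags) with heights of 347 and 160. A site in an intron of the neighbouring gene Thada differed 1.53-fold (175 and 115).

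The 4442 sites called in all 4 lists allowed a test with the replicates kept apart. Scores were higher in ΔDL at every one of these sites in the means, with a median log2 difference of 1.02, but limma with Benjamini-Hochberg adjustment called 0 sites (0% of 4442), and 58 had an unadjusted p under 0.05, all higher in ΔDL. The ΔDL replicates stood apart from each other. The median log2 score of these sites was 9.15 in ΔDL replicate 1, 7.38 in ΔDL replicate 2 and 7.26 and 7.04 in the DBD replicates. Against the DBD lists, the median difference was 1.80 and 2.04 for ΔDL replicate 1 and 0.03 and 0.24 for ΔDL replicate 2. Without ΔDL replicate 1 the median difference fell to 0.13, so the general shift between the constructs at these sites rested on a single shallow library, in which the lowest score of a peak was 227. Without ΔDL replicate 2 it was 1.91.

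With each list centred on its median, limma called 5 sites (0.113%) higher in ΔDL and 0 in DBD, with 83 and 167 at an unadjusted p under 0.05. The clearest was the promoter of Ech1, a peroxisomal and mitochondrial enzyme of fatty acid oxidation, with 44 and 127 tags in ΔDL and 8 and 10 in DBD. Its centred difference was 2.88 on the log2 scale (limma adjusted p = 0.000428), and its uncentred difference of 3.99 ± 0.92 (SE) had a limma adjusted p of 0.0688. limma pools variance over sites, and the SE was 0.92 at each of these 5 sites, so it does not measure the replicate spread of Ech1. The promoter of Kntc1, a kinetochore protein, had 28, 119, 12 and 10 tags and a centred difference of 2.22 (limma adjusted p = 0.0329). The other 3 were an intron of Fam166b (22, 65, 9 and 11 tags) and intergenic sites near 5830433M19Rik (23, 72, 8 and 11) and Gm20125 (23, 93, 8 and 12). All 5 held a core, against 7.32% of the 4442 sites. They were named after their values were seen. Because a site had to be called for DBD to be tested, only 49 promoter sites entered, and 23 of these were at least 2-fold higher in ΔDL by height.

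The gene lists were read by the nearest gene of each site, against the background of 30.9% of all sites at least 2-fold higher in ΔDL. Of the sites near genes of actomyosin and the lamins, 24 of 29 (82.8%) were at least 2-fold higher in ΔDL, with a median log2 difference of 2.98, against 0.74 over all sites. The intermediate filament gene Vim held 19 and 88 ΔDL tags at its promoter and no DBD peak, with heights of 1351 and 118. Intron 1 of Vim held 15 and 67 tags in ΔDL and 12 in DBD replicate 1, with heights of 1209 and 153. In an intron of Cald1, which encodes the actin-binding protein caldesmon, the tags were 13 and 71 and the heights 1113 and 82.7, 13.5-fold apart. A site 39809 bp upstream of Myh9, the non-muscle myosin heavy chain, had 13 and 78 tags in ΔDL, 10 in DBD replicate 2 and heights of 1024 and 102. Cores were present at 19 of the 29 sites.

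Genes of TEAD and Hippo signalling, which relays cell contact and tension to transcription, had 12 of 14 sites (85.7%) at least 2-fold higher in ΔDL (median 2.42). The highest lay 9646 bp upstream of Ankrd1, a target of this pathway, with 14 and 85 tags in ΔDL and 12 in DBD replicate 2. Its heights were 1296 and 175. The promoter of Ankrd1 had heights of 452 and 129, an intron of Amotl2 613 and 68.1, and a site near Cyr61, another target, 452 and 88.6. AP-1 genes had 6 of 8 sites (75%, median 2.47). A site 41113 bp upstream of Atf3, a stress-induced member, held 21 and 98 ΔDL tags and no DBD peak, with heights of 1184 and 79.9, and another Atf3 site 51337 bp upstream was equal, with 9, 12, 12 and 8 tags and heights of 198 and 180. The promoter of Fosl1 had heights of 437 and 42.5.

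KLF and Sp factors had 20 of 36 sites (55.6%, median 1.09), and 6 of their 7 promoter sites were at least 2-fold higher, against 93.9% of all promoter sites. The highest lay far from Klf6, with 13 and 69 ΔDL tags, no DBD peak and heights of 1113 and 48.2. Klf3 itself had 6 sites, all at least 2-fold higher in ΔDL. Those in its promoter and intron had heights of 639 and 72.0 and of 820 and 62.2. The 2 in its exons had 5 and 62 and 6 and 73 tags in ΔDL and 17 and 26 in DBD replicate 1 alone. The rescue constructs carry Klf3 coding sequence, so tags from the construct and from the locus cannot be told apart at exons. DBD lacks the N-terminal part of that sequence, and its effect on the ΔDL excess was not tested. The 2 exon sites are counted in the 6 and the 20 above. The promoter of Sp1, a family founder that binds GC boxes, had heights of 630 and 62.7.

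Matrix genes were split between the kinds of site. Of 28 sites near collagens, laminins, integrins and other matrix genes, 14 (50%) were at least 2-fold higher in ΔDL and 11 (39.3%) within 1.5-fold, with a median of 0.96. A site 2515 bp upstream of Col6a1 held 22 and 63 ΔDL tags and 10 in DBD replicate 1, with heights of 923 and 134. Intron 1 of Col1a2, a chain of type I collagen, was called in all 4 lists (10, 43, 10 and 8 tags) with heights of 709 and 211. Timp3, a protease inhibitor, had sites of both kinds, with heights of 609 and 82.7 in its intron 2 and of 372 and 282 in an upstream site within Syn3.

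Of 38 sites near TGF-beta pathway genes, 15 (39.5%) were at least 2-fold higher, with a median of 0.81, close to the 0.74 of all sites. The highest were an intergenic site of Tgfbr2, a receptor of the pathway, with 8 and 60 tags and heights of 955 and 48.8, intron 1 of Ski, which encodes a corepressor of SMAD proteins, with heights of 861 and 112, and a distant site of Inhba, an activin subunit, with 755 and 84.4. CtBP complex genes had only 8 sites, 3 of them at least 2-fold higher (37.5%, median 0.60). Among these were the promoter of Wiz (393 and 52.3) and a site upstream of Zfp217 (402 and 50.9).

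Ribosomal protein genes followed the region of the site. Of 39 sites, 18 (46.2%) were at least 2-fold higher in ΔDL. All 12 promoter sites were among them, and 6 of the 27 other sites, near the shares of 93.9% over all promoter sites and 25.4% over all sites outside promoters. The promoter of Rpl41 had 7 and 40 ΔDL tags and heights of 891 and 119, that of Rps19 5 and 33 tags and heights of 719 and 53.8, and that of Rps26 10 and 33 tags and heights of 584 and 99.7. None of these 3 had a DBD peak. With heights scaled to the same median, the number of sites at least 2-fold higher in ΔDL stayed at 24 for actomyosin and lamin, 6 for AP-1 and 3 for the CtBP complex, and was 11 for TEAD and Hippo, 16 for KLF and Sp, 12 for matrix, 13 for TGF-beta and 13 for ribosomal proteins.

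**Figure D5:**
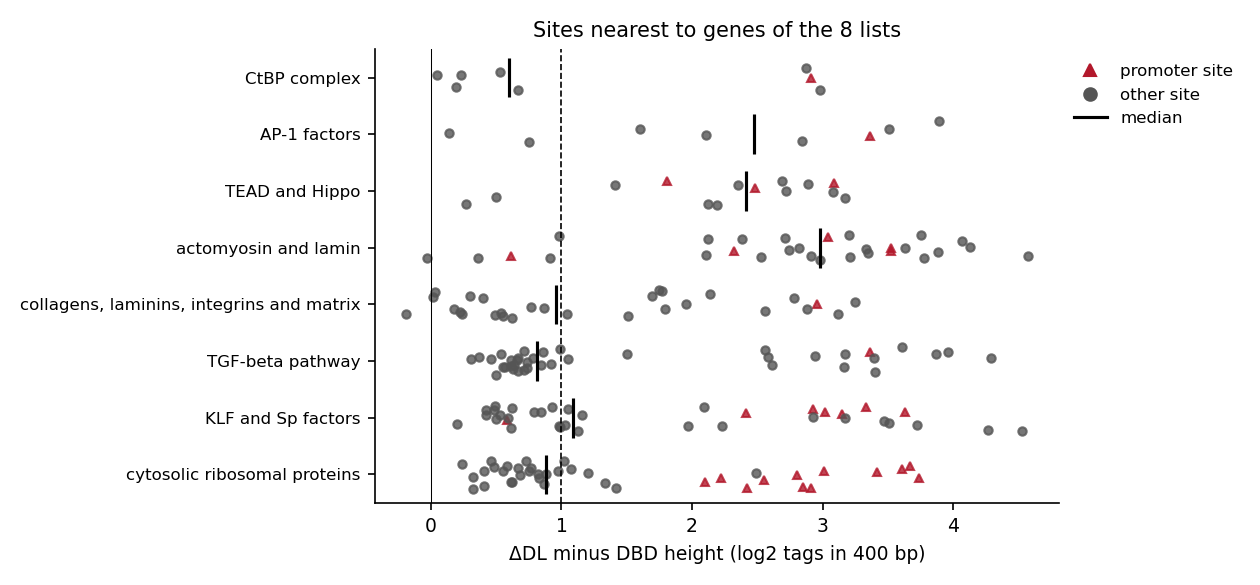
Difference between ΔDL and DBD heights (horizontal axis, log2 tags in 400 bp) at each site whose nearest gene is in one of 8 lists, with promoter sites as red triangles, other sites as grey circles and the median of a list as a black bar; the dashed line marks 2-fold. All 12 promoter sites of ribosomal protein genes lie to the right of that line, and 24 of the 29 sites of actomyosin and lamin genes do.

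At least 1 site lay nearest to 6845 genes and 2 or more to 2496 genes, and 804 genes had at least 1 site 2-fold higher in ΔDL and at least 1 within 1.5-fold. Among the 277 genes with a promoter site and an intronic or intergenic site, the promoter showed the largest ΔDL excess in 209. In 127 of them the promoter was at least 2-fold higher in ΔDL and no other site was, in 121 both kinds of site were, and in 9 only a site outside the promoter was. Of 440 genes with 5 or more sites, 5 had all sites at least 2-fold higher in ΔDL and 144 had none.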

How the data were processed

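Klf3-/- MEFs rescued with ΔDL or DBD were compared by anti-V5 ChIP-seq, 2 replicates each. Reads were mapped by the authors to the mm9 build (the submitters' processing notes name Bowtie2 2.0.0 and SAMtools 0.1.18), and HOMER 4.1 gave the peaks of every replicate, called against its input, and their annotation. The peak score of a replicate list is a signal that the authors scaled to 100 M tags. The deposited heights are log2 values of tags in 400 bp, counted by the authors over both replicates. They are not whole multiples of a tag: 19.4% of DBD heights lay within 0.1 tag of one, so a height is uncertain by up to 1 tag. The G+C content of a peak is a fraction and its conservation a mean PhastCons score, both as deposited. G+C recomputed from the mm9 sequence matched all 4 lists within 0.005.

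The table of all peaks was read at sites listed for ΔDL or DBD. At least 2-fold counted as higher and at most 1.5-fold as equal. Peaks overlapped from 1 bp. The lists were compared by two-sided exact permutation tests, and log2 scores at sites in all 4 lists with limma 3.58.1 (R 4.3.3, threshold 0.05), after a test on simulated data. A DBD height under 1 tag was set to 3 tags for a fold. Named sites were those of largest ΔDL excess (4), smallest difference (3) and largest DBD excess (3) in promoters, introns and intergenic regions, with a log2 height of at least 8 and a call in both replicates of the construct concerned, those at genes the study names, and the highest members of 8 gene lists. Sites on 1 chromosome were not named. Some sites that met the rule are not reported here. The sites, lists and rules were chosen with earlier results of these data known. Transcripts were matched to gene symbols through RefSeq (GRCm38), without coordinates. Alternatives were lists of equal length or their upper 50%, single replicates left out, other folds, scalings, minimum heights and tags, and the replicate number as a block. Merged lists and KLF3 lists were not used. Intervals are 95% and cover counting error only.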

Additional observations from a re-analysis of the deposited data

How the results depend on the processing

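Every difference between the lists in promoter, intron, intergenic and core share kept its direction under each alternative, and only the share of other regions turned, to -0.0366 percentage points without ΔDL replicate 2 (with a list left out it was at most 0.249, without ΔDL replicate 1). Leaving out a list moved the promoter difference between 5.17 and 13.7 percentage points and the core difference between 7.28 and 21.4, with both lowest values without ΔDL replicate 2 and both highest without ΔDL replicate 1. Shared sites moved with the lists. The share of ΔDL sites found with DBD was 63.3% with the 8105 highest peaks of each list, 41.1% with the upper 50%, and between 14.4% (without ΔDL replicate 1) and 51.2% with a list left out. The share of DBD sites found with ΔDL was 51.5% with equal lists and between 66.3% and 95.1% with a list left out. An overlap of 200 bp was not run, since replicate peaks are narrower. Sites at least 2-fold higher in ΔDL numbered 2496 with scaled heights and, by the nearly identical cut, at 3-fold, 2267 with a log2 height of at least 8 and 12272 over all sites of the table. Equal sites numbered 9340 with scaled heights and 548 with a log2 height of at least 8. Sites higher in DBD numbered 27, 0 at 3-fold, 0 with a log2 height of at least 8 and 29 over all sites. The median difference at promoters, in introns and in intergenic regions was 2.20, 0.13 and 0.09 with scaled heights, 2.92, 1.04 and 0.89 with a log2 height of at least 8, and 2.25, 1.03 and 0.85 over all sites. In the limma fit, centring gave 5 calls higher in ΔDL, the replicate number as a block 1, and both together 23. The deviations of same-numbered replicates from the mean of their construct correlated at 0.02. With 2 replicates both pairs must give this same value, so it is a single check. Nothing in the labels pairs the numbers, and this value cannot tell whether same-numbered replicates shared a batch. Leaving out a list gave between 0 and 4433 calls, 4433 without ΔDL replicate 2 and 58 without ΔDL replicate 1, where the lone ΔDL sample is assumed to vary like the DBD ones. No fit called a site higher in DBD. A planned count test on recovered tags was not run, since peak lists hold no tags below the calling limit. The shallow ΔDL replicate 1 limits the precision of every comparison that uses it.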
